A study of Mus musculus with 28 samples.

Results

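The Nr4a genes encode a small family of orphan nuclear receptors, Nr4a1 (also called Nur77), Nr4a2 (Nurr1) and Nr4a3 (Nor1). The members were chosen by gene name, and the 3 genes were found in each of the 7 comparison tables, which list 22919 genes. Nascent RNA was measured by Bru-seq, in which living cells take up bromouridine and the labelled RNA is then captured with an antibody and sequenced. The cells were mouse forebrain cultures of the CD1 strain, made from cortices and hippocampi of embryos at embryonic day 18, pooled from groups with matched sex ratios, and labelled as neurons, astrocytes and oligodendrocyte precursor cells. Every culture carried a lentivirus from day in vitro 14, whose shRNA was a control (shCtrl) or targeted Rai1 (shRai1), a chromatin-associated regulator of transcription. On day in vitro 17 the cultures received water as vehicle, 1 µM tetrodotoxin (TTX), which blocks sodium channels and silences the network, or 20 µM bicuculline (BIC), which blocks GABA-A receptors and raises activity. Treatment lasted 4 hours, with 2 mM bromouridine in the last 20 minutes. The 16 libraries fell into 6 groups: shCtrl with vehicle (2 libraries), TTX (3) or BIC (2), and shRai1 with vehicle, TTX or BIC (3 each). By their titles, the shCtrl vehicle libraries are replicates 1 and 2, and the shCtrl BIC libraries are replicates 2 and 3. Replicate numbers were not used as a pairing. The replicates are biological per the series' design text, but the values analysed here are 1 pooled level or 1 fitted change per group, so spread is shown by standard errors (SE) and not by single libraries.

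Nr4a receptors bind DNA without a known activating hormone, because bulky side chains fill the pocket where other nuclear receptors hold their ligand. Their activity therefore depends largely on how much of them is made, and all members are immediate early genes, which a neuron transcribes within minutes of calcium entry without making new protein first. They bind as single molecules to a DNA element called NBRE, and Nr4a1 and Nr4a2 also pair with retinoid X receptors. Nr4a1 is known in excitatory neurons for restraining spine density, Nr4a2 for the making and upkeep of midbrain dopamine neurons, and the family for its part in memory consolidation.

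The promoters are shown to describe the sequences before the starts of the members. CREB, which binds the cAMP response element (CRE), is 1 of several calcium-responsive regulators of immediate early genes. Its binding and activity were not measured here, and its part in the changes of the Nr4a genes was not tested. RefSeq's windows for GRCm38.p6 held 1 start for each of the 3 genes. The 250 bases before it are given 5′ to 3′ on the gene's strand, at chr15:101266596-101266845 (plus strand) for Nr4a1, chr2:57124004-57124253 (minus strand) for Nr4a2 and chr4:48045055-48045304 (plus strand) for Nr4a3. Capitals mark the short form of the CRE, TGACG, or CGTCA where it lies on the other strand.
Nr4a1: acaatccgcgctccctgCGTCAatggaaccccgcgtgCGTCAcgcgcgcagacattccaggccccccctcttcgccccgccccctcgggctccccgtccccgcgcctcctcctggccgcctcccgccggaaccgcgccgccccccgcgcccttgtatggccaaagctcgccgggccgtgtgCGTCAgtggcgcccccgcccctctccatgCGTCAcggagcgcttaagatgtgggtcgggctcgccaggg
Nr4a2: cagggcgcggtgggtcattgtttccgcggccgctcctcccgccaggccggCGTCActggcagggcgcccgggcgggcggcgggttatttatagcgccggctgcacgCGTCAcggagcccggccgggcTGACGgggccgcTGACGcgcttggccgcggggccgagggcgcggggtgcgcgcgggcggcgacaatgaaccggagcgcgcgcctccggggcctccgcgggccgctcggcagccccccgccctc
Nr4a3: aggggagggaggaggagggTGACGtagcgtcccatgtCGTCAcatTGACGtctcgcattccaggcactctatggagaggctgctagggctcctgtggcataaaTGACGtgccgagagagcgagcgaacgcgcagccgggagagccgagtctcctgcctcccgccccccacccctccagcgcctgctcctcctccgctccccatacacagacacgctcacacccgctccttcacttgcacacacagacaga

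Each promoter held 4 short CREs. In Nr4a1 they all lay on the reverse strand, at -233 to -229, -213 to -209, -69 to -65 and -40 to -36 from the start. Nr4a2 had them at -200 to -196, -144 to -140, -123 to -119 and -111 to -107. In Nr4a3 they lay at -231 to -227, -213 to -209, -205 to -201 and -147 to -143. Of 32851 RefSeq windows of this length, 0.137% (45) held at least 4 matches to TGACG on either strand, and 17.8% held at least 1. These are GC-rich sequences, with 74.4%, 80% and 63.6% G and C for Nr4a1, Nr4a2 and Nr4a3 against a median of 52.4% over all windows. Among the 9178 windows with at least 60% G and C, 0.37% held 4 or more and 27.1% held at least 1. For the other nuclear receptors, 16.4% of 61 windows (40 genes matched) held at least 1 short CRE. For other immediate early transcription factors 72.2% of 18 windows (12 genes matched) did. The 45 windows with at least 4 included the Nr4a genes and no matched gene of these lists.

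No window of the 3 genes held the full palindrome TGACGTCA (in 1.55% of all windows), which contains the short form, the NBRE AAAGGTCA (1.34%), the AP-1 site TGANTCA (6.75%) or a CArG box (1.47%), searched on both strands. A MEF2 box was found once, in Nr4a2 at -167 to -158, and in 2.92% of all windows. The motifs were chosen with these promoters in view, and a match describes letters, not binding. The starts of these windows were not matched to those of the authors' gene intervals, which are in another build.

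Nr4a1 was by far the most transcribed member in the shCtrl arm, on the per-length scale of pooled FPKM (fragments normalized for gene length and library size). Its level was 697 FPKM in vehicle (the authors' bounds, 490 to 905), 67.3 (51.9 to 82.7) in TTX and 657 (481 to 832) in BIC. For Nr4a3 the levels were 53.4 (40.7 to 66.1), 12.05 (8.16 to 15.9) and 83.1 (64.2 to 102). Nr4a2 stood at 26.0 (19.6 to 32.4), 11.3 (8.07 to 14.4) and 70.9 (55.0 to 86.8). Nr4a1 was thus low in TTX alone, and its bounds in vehicle and BIC overlapped widely. Nr4a2 stepped up from TTX through vehicle to BIC with bounds that did not overlap, and for Nr4a3 the bounds of vehicle and BIC overlapped slightly. The confidence level of the bounds is not given in the sources used here, and these levels have no test of their own.

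**Figure D1:**
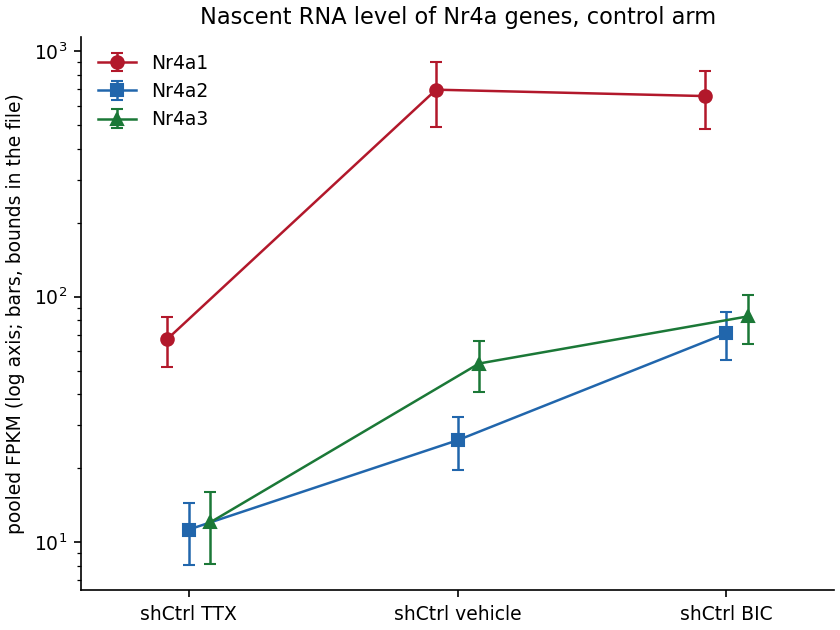
Pooled nascent RNA level (FPKM, log axis) of Nr4a1, Nr4a2 and Nr4a3 in shCtrl cultures under TTX, vehicle and BIC; points are the authors' pooled values and bars their bounds. Nr4a1 drops from 697 FPKM in vehicle to 67.3 in TTX and is at 657 in BIC, while Nr4a2 climbs from 11.3 in TTX through 26.0 to 70.9.

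In FPKM, Nr4a1 exceeded Nr4a2 26.8 times and Nr4a3 13.0 times in vehicle. In TTX these ratios shrank to 5.98 and 5.58, and in BIC they were 9.26 and 7.90. The order Nr4a1, Nr4a3, Nr4a2 held in each of the 3 shCtrl conditions. The bounds of Nr4a3 and Nr4a2 were apart in vehicle but overlapped in TTX and in BIC, so these neighbours were not told apart there. Of 49 nuclear receptor genes, Nr4a1 ranked 1 by FPKM in vehicle, before Thra, a thyroid hormone receptor at 271 FPKM. Nr4a3 ranked 3 and Nr4a2 ranked 5. Under TTX the ranks fell to 2 for Nr4a1, 10 for Nr4a3 and 13 for Nr4a2, and under BIC they were 1, 3 and 4.

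The authors' gene intervals (mm9) place Nr4a1 at chr15:101097277-101105225, Nr4a2 at chr2:56959637-56976414 and Nr4a3 at chr4:48064120-48096224, spanning 7949, 16778 and 32105 bases. None overlaps another gene listed in the authors' FPKM table. Their mean normalized counts over the libraries, 9710 for Nr4a1, 836 for Nr4a2 and 3757 for Nr4a3, lie above the median of 107 over the 21192 tested genes.

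Silencing the network lowered transcription of every member in both arms. With shCtrl, Nr4a1 fell most, by 3.08 on the log2 scale in the authors' deposited table (SE 0.25, adjusted p = 1.24e-32, DESeq2 Wald test with Benjamini-Hochberg adjustment), an 8.45-fold drop with a 95% interval of 6.02 to 11.9. Nr4a3 fell by 2.27 (SE 0.096, adjusted p = 9.64e-120) in the authors' deposited table, or 4.82-fold (4.23 to 5.50). Nr4a2 fell by 1.49 (SE 0.24, adjusted p = 2.54e-08) in the authors' deposited table, or 2.80-fold (2.01 to 3.91). The 3 intervals did not overlap, which orders the falls as Nr4a1, Nr4a3, Nr4a2. Across all tested genes, 10.9% were called lower in this comparison, where a call is an adjusted p under 0.05.

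With shRai1 the order was the same. The authors' deposited table for TTX in that arm gives -2.57 for Nr4a1 (SE 0.23, adjusted p = 1.57e-27), or 5.93-fold (4.35 to 8.08). In the same deposited table of the authors Nr4a3 fell by 1.96 (SE 0.085, adjusted p = 5.84e-115) and Nr4a2 fell by 1.08 (SE 0.22, adjusted p = 1.43e-05). Genes called lower made up 12.3% of those tested. The interval of Nr4a3, 3.47- to 4.37-fold, just overlapped that of Nr4a1 and lay above that of Nr4a2 (1.56- to 2.86-fold). Averaged over the arms, which share no library, the falls were 7.08-fold for Nr4a1 (5.63 to 8.91), 4.34-fold for Nr4a3 (3.97 to 4.73) and 2.43-fold for Nr4a2 (1.94 to 3.05), where 17.5% of genes were called lower.

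In bulk cultures, fewer cells of a type and less RNA per cell cannot be told apart. The marker counts that follow for TTX stand against 10.9% of all genes called lower and 8.59% called higher with shCtrl, and 12.3% and 10% with shRai1. Of 10 neuron markers, 4 were called lower and 1 higher under TTX with shCtrl, with log2 changes from -0.95 to 0.42 in the authors' deposited table, and 4 were called lower and 0 higher with shRai1. Their summed level was 643 FPKM in vehicle, 571 in TTX and 652 in BIC. Of 5 oligodendrocyte precursor markers, 4 were called lower with shCtrl, with all 5 from -0.84 to -0.47 in the authors' deposited table and summed levels of 129, 92.0 and 108 FPKM. With shRai1 they went the other way, with 4 called higher and all 5 from 0.26 to 1.10 in the authors' deposited table. Of 6 astrocyte markers, 3 were called lower and 0 higher with shCtrl, and 1 lower and 1 higher with shRai1. They summed to 195, 159 and 148 FPKM in the shCtrl arm and the 6 microglia markers to 21.6, 22.7 and 31.3. The 4 mature oligodendrocyte markers summed to 61.2, 71.7 and 80.8 FPKM, with Mag at 0 in BIC. Their deposited changes under BIC went the other way from these sums: in the authors' deposited tables all 4 were below 0 with shCtrl (median -0.29) and 3 of 4 with shRai1 (median -0.21), with 1 called lower and 0 higher in each arm, where 13.4% (shCtrl) and 17.6% (shRai1) of all genes were called lower. The 3 endothelial markers summed to at most 1.07 FPKM, with Cldn5 at 0 in TTX and BIC. The part of cell composition in the Nr4a changes was not tested.

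**Figure D2:**
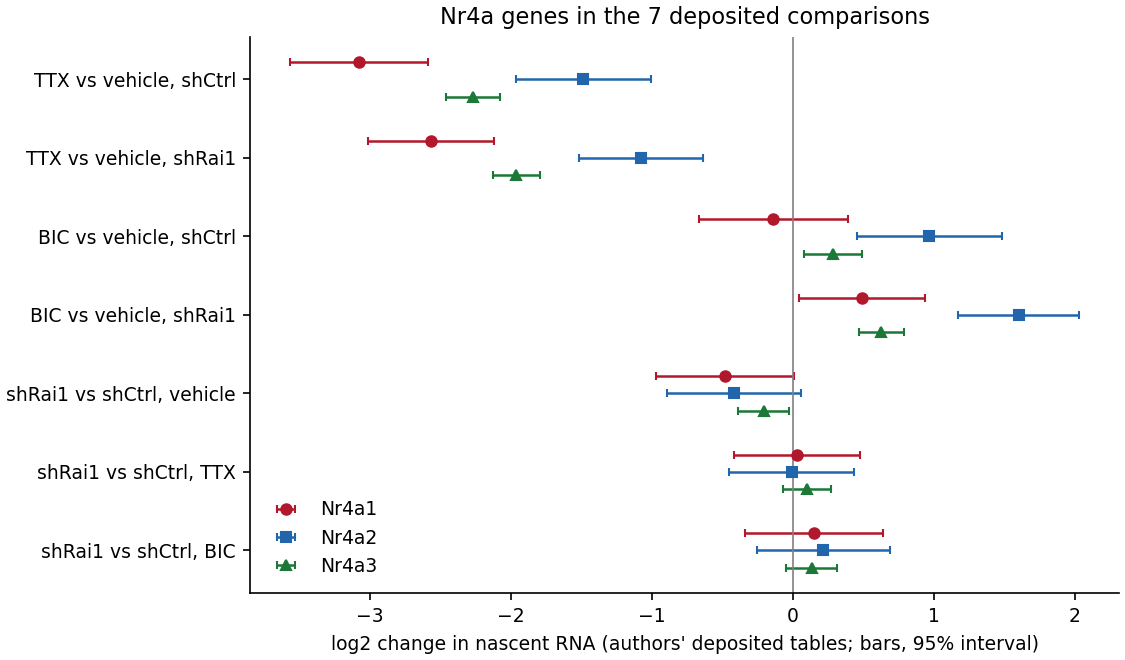
Log2 change in nascent RNA (x axis) of the 3 Nr4a genes in each of the 7 deposited comparisons; points are the authors' estimates and bars 95% intervals (1.96 SE). All 3 genes lie left of 0 under TTX in both arms, from -3.08 to -1.08, only Nr4a2 and Nr4a3 were called to the right under BIC, and no change was called for shRai1 against shCtrl.

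Under BIC Nr4a2 and Nr4a3 rose, and Nr4a1 was not called. Nr4a2 rose most: in the authors' deposited table for BIC with shCtrl its log2 change was 0.97 (SE 0.26, adjusted p = 0.00104, DESeq2), a 1.96-fold rise (1.37 to 2.80). Nr4a3 rose by 0.29 (SE 0.10, adjusted p = 0.0200) in the authors' deposited table, or 1.22-fold (1.06 to 1.41). The ratio of the authors' pooled FPKM was larger, 1.56-fold for Nr4a3 and 2.73-fold for Nr4a2. A stricter threshold of 0.01 on the adjusted p, applied to the calls of the 3 Nr4a genes, removed this rise of Nr4a3 and no other. Nr4a1 was at -0.14 (SE 0.27, adjusted p = 0.748) in the authors' deposited table, a ratio of 0.908 with an interval of 0.629 to 1.31. In this comparison 13.7% of tested genes were called higher.

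With shRai1, BIC raised Nr4a2 by 1.60 in the authors' deposited table (SE 0.22, adjusted p = 3.05e-12), or 3.04-fold (2.25 to 4.09). Nr4a3 rose by 0.63 there (SE 0.082, adjusted p = 2.24e-13), or 1.54-fold (1.38 to 1.73). Nr4a1 stood at 0.49 in the authors' deposited table (SE 0.23, DESeq2 p = 0.0306), with an adjusted p of 0.0688 that missed the threshold. Its ratio was 1.41, with an interval of 1.03 to 1.91. Here 17.6% of tested genes were called higher. Averaged over the arms, Nr4a2 rose 2.44-fold (1.93 to 3.08, adjusted p = 4.26e-13, Wald test computed here) and Nr4a3 rose 1.37-fold (1.25 to 1.50, adjusted p = 3.87e-11). The averaged ratio of Nr4a1 was 1.13 (0.889 to 1.44, adjusted p = 0.460), against a background of 22.4% of genes called higher. Neuron markers moved in the same comparisons: of 10, 6 were called higher and 3 lower under BIC in each arm. Their median changes were 0.53 with shCtrl and 0.67 with shRai1, with a range of -0.72 to 1.47 with shCtrl in the authors' deposited table. The pooled FPKM of these 10 markers with shCtrl showed no rise of this size. Their median level was 59.1 in vehicle and 56.9 in BIC, and their sums were 643 and 652. Of 6 microglia markers, 2 were called higher with shCtrl and 1 with shRai1. Of all genes, 13.7% were called higher and 13.4% lower with shCtrl, and 17.6% each way with shRai1. The part of these markers in the rises of Nr4a2 and Nr4a3 was not tested.

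The distance from silenced to driven cultures was more alike between the members than either step of it. The log2 difference of BIC from TTX with shCtrl was 2.94 for Nr4a1, 2.46 for Nr4a2 and 2.56 for Nr4a3, and with shRai1 it was 3.06, 2.68 and 2.59. The SE of these differences is at most 0.37 for Nr4a1, 0.36 for Nr4a2 and 0.14 for Nr4a3 with shCtrl, because the shared vehicle libraries cancel. No test was made of them. What differed was the place of the vehicle level between both ends. With shCtrl, vehicle lay at 105% of the way from TTX to BIC on the log2 scale for Nr4a1, at 88.8% for Nr4a3 and at 60.5% for Nr4a2. With shRai1 the places were 84.0%, 75.8% and 40.2%. By these estimates, which carry no SE, Nr4a1 was nearest to its BIC level without any drug in both arms, and Nr4a2 farthest from it. The 95% intervals of the step from vehicle to BIC overlapped for Nr4a1 and Nr4a3. They were -0.67 to 0.39 and 0.08 to 0.49 with shCtrl, and 0.05 to 0.94 and 0.47 to 0.79 with shRai1. Nr4a1 and Nr4a3 were thus not told apart in this step. The TTX and BIC comparisons of an arm share their vehicle libraries, so an error in those libraries moves both steps of a gene in opposite directions.

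Cultures labelled shRai1 gave no call against shCtrl for any member in vehicle, TTX or BIC. The targeted gene itself was not called in nascent RNA, with log2 changes of 0.16 (SE 0.073), -0.12 (SE 0.064) and 0.03 (SE 0.073) for Rai1 in vehicle, TTX and BIC in the authors' deposited tables. An shRNA acts on finished transcripts, so nascent RNA does not check the knockdown, and the arm is named here as labelled. In vehicle, the authors' deposited table gives Nr4a1 at -0.48 in cultures labelled shRai1 against shCtrl (SE 0.25, 95% interval -0.97 to 0.01, adjusted p = 0.464). Nr4a2 was at -0.42 in that deposited table of the authors (SE 0.24, -0.89 to 0.06, adjusted p = 0.540) and Nr4a3 at -0.21 (SE 0.093, -0.39 to -0.02, adjusted p = 0.362). All 3 estimates lay below 0, 1 of them (Nr4a3) with an unadjusted p under 0.05 by DESeq2, but none was called after adjustment over the whole table. Of all tested genes, 0.576% were called in either direction.

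In TTX and in BIC the estimates were nearer 0. The authors' deposited table for TTX gives 0.03 for Nr4a1 (-0.41 to 0.48), -0.0077 for Nr4a2 (-0.45 to 0.43) and 0.10 for Nr4a3 (-0.07 to 0.27). For BIC the authors' deposited table gives 0.15 for Nr4a1 (-0.34 to 0.64), 0.22 for Nr4a2 (-0.26 to 0.69) and 0.13 for Nr4a3 (-0.05 to 0.31). Adjusted p was 1.00 for each, with 0 of the 6 at an unadjusted p under 0.05 by DESeq2, and 0.0283% and 0.00944% of tested genes were called in these comparisons. Averaged over the 3 treatments, the ratio of shRai1 to shCtrl was 0.934 for Nr4a1 (0.772 to 1.13), 0.953 for Nr4a2 (0.792 to 1.15) and 1.01 for Nr4a3 (0.937 to 1.08). The adjusted p was 1.00 for each of these averages, and 0.00548% of genes were called.

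The difference between the arms in the drug response was tested directly. For TTX the response with shRai1 minus that with shCtrl was 0.51 for Nr4a1 (SE 0.34, adjusted p = 0.727, Wald test computed here), 0.41 for Nr4a2 (SE 0.33, adjusted p = 0.829) and 0.31 for Nr4a3 (SE 0.13, adjusted p = 0.354). For BIC it was 0.63 for Nr4a1 (SE 0.35), 0.63 for Nr4a2 (SE 0.34) and 0.34 for Nr4a3 (SE 0.13), with an adjusted p of 1.00 each. None of these 6 passed, where 0.943% and 0.0219% of genes did, and those of Nr4a3 alone had an unadjusted p under 0.05 (0.0163 and 0.0106). The 6 estimates all lay above 0 and are built on the same vehicle libraries as the knockdown comparison in vehicle. In that comparison 4 of 5 oligodendrocyte precursor markers (Pdgfra, Cspg4, Olig1 and Olig2) were called lower in the authors' deposited table, with all 5 between -1.37 and -0.60, where 0.491% of all genes were called lower. All 5 were called higher in the TTX response with shRai1 minus shCtrl, as were 0.587% of all genes. Their part in the Nr4a estimates was not tested.

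Against other nuclear receptors, the members stood at the low end under TTX. Among 49 receptor genes in the authors' deposited tables, Nr4a1, Nr4a3 and Nr4a2 held ranks 1, 2 and 3 from the lowest log2 change in both arms. Of 46 other receptors, of which 37 had an adjusted p, 11 were called higher and 5 lower with shCtrl, with a median of 0.14 against 0.00062 over all tested genes. Of all genes, 8.59% were called higher and 10.9% lower in that comparison. The lowest of the 46 was Thrb, the beta thyroid hormone receptor, at -0.93 (SE 0.11, adjusted p = 4.84e-16) in the authors' deposited table. Rxrg, a retinoid X receptor, fell by 0.87, while Rxra, another one, rose by 0.72 and Rora, a receptor of the circadian clock, rose by 0.53 in the authors' deposited table. With shRai1 12 were called higher and 3 lower (median 0.04, with 10% of all genes called higher and 12.3% lower), Thrb falling again by 0.93 and Rxra, Pparg and Rarg rising by 0.71, 1.02 and 0.87 in the authors' deposited table.

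BIC spread the receptors to both sides. With shCtrl 9 were called higher and 9 lower (median -0.08 against -0.001 over all tested genes, 40 with an adjusted p), where calls made up 13.7% (higher) and 13.4% (lower) of all genes. In the authors' deposited table Thrb rose by 1.00, and Rarb, a retinoic acid receptor, fell by 1.43, the clock repressor Nr1d2 fell by 1.01 and Rora fell by 0.93. With shRai1 9 were called higher and 12 lower (median -0.02, 42 with an adjusted p), against 17.6% of all genes called in each direction. There Rarb fell by 1.44, Nr1d2 fell by 1.02, Rora fell by 1.03, and Nr6a1 rose by 0.86 in the authors' deposited table. By log2 change under BIC, counted from the highest of 49, Nr4a2 ranked 6 with shCtrl and 1 with shRai1, Nr4a3 ranked 13 and 9, and Nr4a1 ranked 28 and 12. None of the other receptors was called in the 3 knockdown comparisons by DESeq2. Over all tested genes, calls made up 0.576% in vehicle, 0.0283% in TTX and 0.00944% in BIC. At those shares an absence of calls in a list of this size tells little. Over the 3 comparisons of 46 receptors, 6 estimates had an unadjusted p under 0.05 by DESeq2. The share of all genes at that p is not given.

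Other immediate early transcription factors fell widely under TTX, and the Nr4a genes lay within their range. Of 17 such factors, 15 were called lower and 1 higher under TTX with shCtrl, with a median of -2.11, where 10.9% of all genes were called lower and 8.59% higher. In the authors' deposited table Npas4, an activity-regulated factor of neurons, fell by 3.92, the AP-1 factor Fosl2 fell by 2.46, Egr1, a zinc finger factor, fell by 2.35, and Nfil3, a basic leucine zipper repressor, fell by 1.76. Set among these, 20 genes in all, Nr4a1 ranked 2 from the lowest, Nr4a3 ranked 10 and Nr4a2 ranked 15. With shRai1 14 were called lower and 1 higher (median -1.82, against 12.3% and 10% of all genes), and the ranks were 2, 8 and 15. The authors' deposited table gives -2.35 for Fosl2, -1.83 for Egr1, -3.24 for Npas4 and -1.46 for Nfil3 there.

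BIC moved the early factors both ways. With shCtrl 7 were called higher and 5 lower (median 0.49), against 13.7% and 13.4% of all genes. The authors' deposited table gives rises of 2.41 for Klf4, a zinc finger factor, and 1.28 for Nfil3, while Egr3 fell by 1.97 and Egr2 fell by 1.49. With shRai1 11 were called higher and 4 lower (median 1.08, against 17.6% of all genes in each direction), among them Klf4 (2.80), Atf3 (2.77), Nfil3 (1.77) and Crem (1.08) in the authors' deposited table. Counted from the highest of 20, Nr4a2 ranked 5 in both arms, Nr4a3 ranked 12 and 13, and Nr4a1 ranked 14 in both. For shRai1 against shCtrl in vehicle all 17 factors had an estimate below 0, as the 3 Nr4a genes did, with a median of -0.40. Of these 8 had an unadjusted p under 0.05 by DESeq2 and only Egr1 was called, where 0.491% of all genes were called lower. Egr1 was at -0.54 (SE 0.13, adjusted p = 0.0126) in the authors' deposited table. The share of all genes at an unadjusted p under 0.05 is not given. For shRai1 against shCtrl in TTX, 10 of the 17 estimates lay above 0 (median 0.0029), and in BIC 13 did (median 0.16). In these 2 comparisons 0 of the 17 were called, where 0.0283% and 0.00944% of all genes were.

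**Figure D3:**
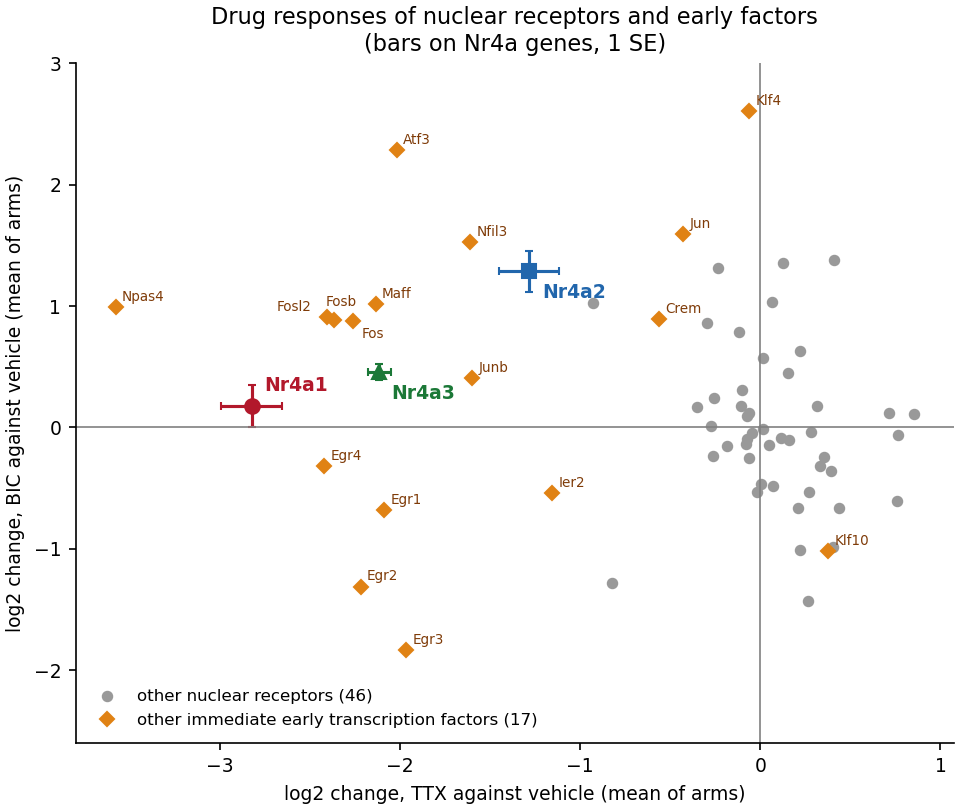
Log2 change under TTX (x axis) against log2 change under BIC (y axis), each averaged over the arms, for the 3 Nr4a genes (bars, 1 SE), 46 other nuclear receptors and 17 other immediate early transcription factors. The Nr4a genes lie to the left with the early factors, from -2.82 to -1.28 under TTX, apart from most nuclear receptors, and spread from 0.18 to 1.29 under BIC; both axes use the same vehicle libraries.

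Known calcium-responsive regulators of immediate early genes were called in both directions. Of 27 kinases, phosphatases, CREB, MEF2, SRF and NFAT factors and class II deacetylases, 8 were called lower and 3 higher under TTX with shCtrl, with a median of -0.09. These are 29.6% and 11.1% of the list, against 10.9% of all genes called lower and 8.59% called higher. The strongest calls in the authors' deposited table were Hdac5, a deacetylase that represses MEF2 targets (-1.32), Srf, the factor of the CArG box (-1.21), Hdac9 (-1.40), and Elk4, a partner of Srf (-0.76). With shRai1 11 were lower and 1 higher (median -0.14), or 40.7% and 3.70% against 12.3% and 10% of all genes, with Hdac5 at -1.46, Srf at -1.24, Hdac9 at -1.56 and Hdac4 at -0.59 in the authors' deposited table. Under BIC with shCtrl 9 were higher (33.3%, against 13.7% of all genes) and 6 lower (22.2%, against 13.4%), with a median of 0.0043. In the authors' deposited table Crem, a CREB relative that is also in the list of early factors, rose by 0.70 and Nfatc1 rose by 0.65, while the kinase Camk2a fell by 0.60 and Srf fell by 1.02. With shRai1 8 were higher and 6 lower (median -0.001), or 29.6% and 22.2% against 17.6% of all genes in each direction, Crem rising by 1.08 and Nfatc1 rising by 0.79 while Srf fell by 0.72 and Camk2a fell by 0.53 in the authors' deposited table. In the 3 knockdown comparisons 0 of the 27 were called by DESeq2. Over all tested genes, calls made up 0.576% in vehicle, 0.0283% in TTX and 0.00944% in BIC. At those shares an absence of calls in a list of this size tells little. Over the 3 comparisons of 27 genes, 10 estimates had an unadjusted p under 0.05 by DESeq2. Hdac4 alone was called in the TTX response with shRai1 minus shCtrl (-0.38, adjusted p = 0.0424, Wald test computed here). This is 3.70% of the list, against 0.943% of all genes called in either direction. In that contrast 8 of the 27 had an unadjusted p under 0.05. For neither unadjusted count is the share over all genes given.

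Partners and coregulators of the Nr4a proteins, 17 genes, were called in small numbers in each direction. Under TTX 5 were called higher and 3 lower with shCtrl (median 0.08) and 4 and 3 with shRai1 (median 0.11). With shCtrl these are 29.4% higher and 17.6% lower, against 8.59% and 10.9% of all genes, and with shRai1 23.5% and 17.6%, against 10% and 12.3%. Bcl2, the survival factor that Nr4a1 protein binds at mitochondria, fell by 0.89 under TTX and rose by 0.83 under BIC with shCtrl in the authors' deposited tables. With shRai1 Bcl2 fell by 0.69 and rose by 0.96. Hdac3, the deacetylase of nuclear receptor corepressor complexes, fell by 0.43 under TTX with shCtrl and fell by 0.50 with shRai1 in the authors' deposited tables. Under BIC 5 were called higher and 2 lower with shCtrl (median 0.02), and 6 and 4 with shRai1 (median 0.05). The 11.8% lower with shCtrl is below the 13.4% of all genes, and the 29.4% higher stands beside 13.7%. With shRai1 35.3% were higher and 23.5% lower, against 17.6% of all genes in each direction. In the authors' deposited table for shCtrl, the acetyltransferase gene Crebbp rose by 0.51 and Rcor1, of the CoREST complex, rose by 0.52, while Rxrg fell by 1.35. The retinoid X receptors are also among the 46 nuclear receptors. In the knockdown comparisons 0 of the 17 were called by DESeq2. Over all tested genes, calls made up 0.576% in vehicle, 0.0283% in TTX and 0.00944% in BIC. At those shares an absence of calls in a list of this size tells little. Over the 3 comparisons of 17 genes, 6 estimates had an unadjusted p under 0.05 by DESeq2. The share of all genes at that p is not given.

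Genes reported elsewhere as Nr4a targets, 18 in number, were called in each direction at shares mostly near those of all genes. Under TTX with shCtrl 11 had an adjusted p, of which 4 were called lower and 2 higher, and the median of the 18 was 0.05. These are 22.2% and 11.1% of the list, against 10.9% of all genes called lower and 8.59% higher. Those lower in the authors' deposited table included Gch1, which makes the cofactor of dopamine synthesis (-2.59), Bdnf, a neurotrophin (-2.12), and Ret, a receptor for the GDNF family of growth factors (-0.87), while Ptpru, a receptor phosphatase, rose by 1.07. With shRai1 3 were lower and 3 higher (median -0.09), or 16.7% each against 12.3% and 10% of all genes, and Gch1, Bdnf and Ret fell by 2.63, 1.62 and 1.10 in the authors' deposited table. Under BIC with shCtrl 3 were higher and 2 lower (median -0.12, 15 with an adjusted p), or 16.7% and 11.1% against 13.7% and 13.4% of all genes. In the authors' deposited table Klhl1 rose by 1.95 and Bdnf rose by 1.41, while the dopamine receptor gene Drd2 fell by 2.34 and Ddc, the decarboxylase of dopamine synthesis, fell by 1.58. Gch1 was at -0.17 there (adjusted p = 0.463 by DESeq2). It is named because it is the gene nearest to Nr4a1 by the distance given below, so its likeness to Nr4a1 under BIC follows from that choice. With shRai1 4 were higher and 3 lower under BIC (median 0.10), or 22.2% and 16.7% against 17.6% of all genes in each direction. In the knockdown comparisons 0 of the 18 were called by DESeq2. Over all tested genes, calls made up 0.576% in vehicle, 0.0283% in TTX and 0.00944% in BIC. At those shares an absence of calls in a list of this size tells little. Over the 3 comparisons of 18 genes, 5 estimates had an unadjusted p under 0.05 by DESeq2. The share of all genes at that p is not given.

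Patterns over the 6 groups were compared by distance, the root of the summed squared differences between 2 genes' log2 group levels after each gene was centred on its own mean. Nr4a1 and Nr4a3 were 0.74 apart, Nr4a2 and Nr4a3 0.98, and Nr4a1 and Nr4a2 1.59. Each member had closer neighbours outside the family among the 12330 that had a mean count of 50 or more. Nearest to Nr4a1 were Gch1 (0.48), Rgs2, a regulator of G-protein signalling (0.53), and Adamts8, a matrix protease (0.56). Nearest to Nr4a2 were Dio2, which activates thyroid hormone (0.25), the calcium-stimulated adenylyl cyclase Adcy8 (0.30) and the growth factor receptor Met (0.32). Nearest to Nr4a3 were Rgs16 (0.16), the MAP kinase phosphatase Dusp10 (0.24) and Arid5a, an RNA-binding factor (0.34).

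The distances were computed from the deposited changes, so the values that follow describe the choice and add no support to it. In the authors' deposited tables for shCtrl, Gch1 changed by -2.59 under TTX and -0.17 under BIC. Rgs2, the second nearest to Nr4a1, was at -2.97 under TTX but at 0.47 (SE 0.11) under BIC, and at 0.86 (SE 0.086) under BIC with shRai1, above the -0.14 and 0.49 of Nr4a1 in the authors' deposited tables. Dio2, nearest to Nr4a2, changed by -1.56 and 1.11 with shCtrl, and Rgs16, nearest to Nr4a3, by -2.15 and 0.23. Dusp10, second nearest to Nr4a3, was at -2.06 and 0.55. These distances rest on 6 group levels from 16 libraries and carry no test. Ranked by Pearson correlation, which ignores the size of the changes, the nearest 3 genes of each member shared 0 with those named here.

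**Figure D4:**
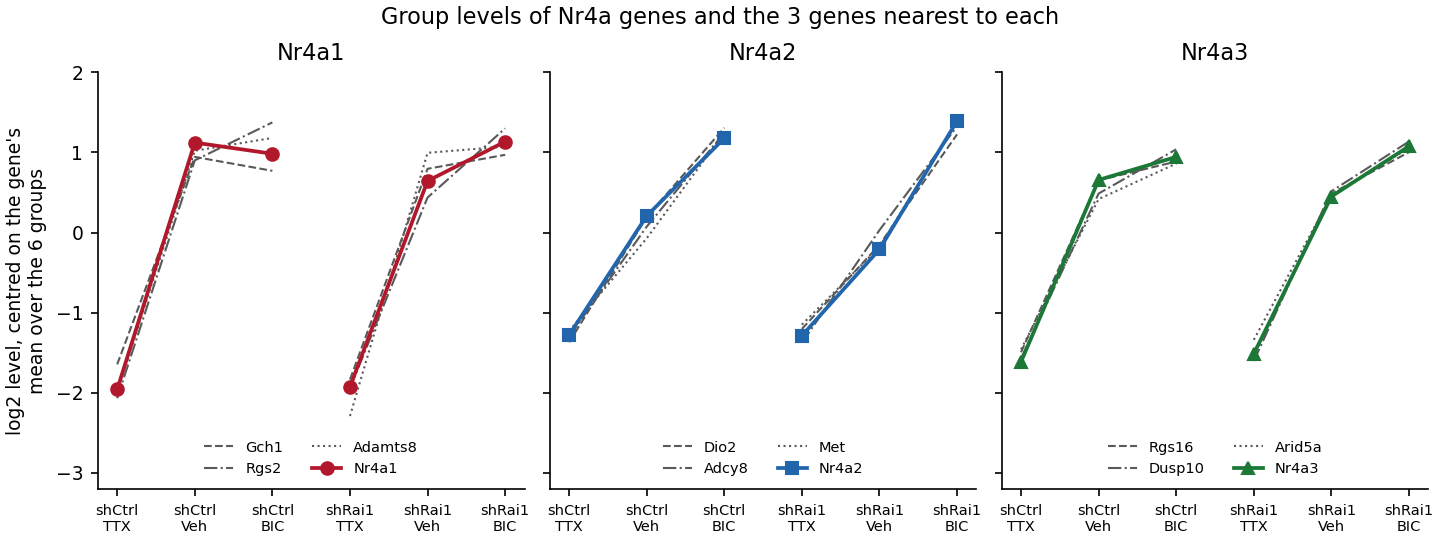
Log2 level in each of the 6 groups (x axis), centred on each gene's own mean (y axis), for each Nr4a gene (coloured) and the 3 genes nearest to it by distance (grey). Nr4a1 is level between vehicle and BIC with shCtrl (1.12 and 0.98), whereas Nr4a2 steps up from -1.28 in TTX through 0.21 to 1.18.

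The precision of these values differed between the members beyond their depth. The SE of the TTX change with shCtrl was 0.25 for Nr4a1 in the authors' deposited table, larger than in 98.8% of 600 genes with a mean count within 2-fold of its own, whose median SE was 0.086. For Nr4a2 it was 0.24, larger than in 99.9% of 4096 such genes (median 0.10). Nr4a3 had an SE of 0.096, larger than in 74.1% of 1866 such genes (median 0.084). In the other 6 comparisons these shares were 98.8% for Nr4a1, 99.9% for Nr4a2, and between 69.6% and 78.0% for Nr4a3. The widest intervals in the family thus belonged to Nr4a1, the member with the most counts, and its vehicle estimate for shRai1 of -0.48 was smaller than 2 SE. Values per library, which would show which cultures set this spread, were not analysed here.

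**Figure D5:**
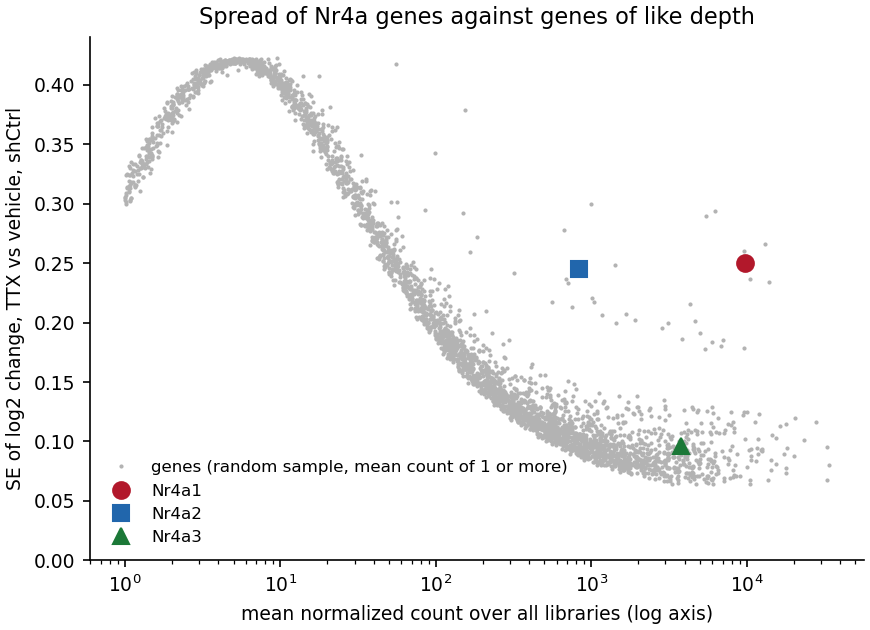
SE of the log2 change under TTX with shCtrl (y axis) against mean normalized count (x axis, log scale) for a random sample of genes (grey) and the 3 Nr4a genes. Nr4a1 (0.25) and Nr4a2 (0.24) lie far above genes of like count, and Nr4a3 (0.096) lies within their band.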

How the data were processed

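Bru-seq nascent RNA from 16 libraries in 6 groups, taken from the labels, was analysed. RAI1 ChIP-seq (12 samples) was not used here. The authors used TopHat2 2.1.0, Bowtie2 2.2.6, DESeq2 and the build mm9, per the submitters' processing notes, which give no role for each. The authors' 7 comparison tables give a mean normalized count, a signal averaged over libraries per the file headers, a log2 fold change, its SE, a Wald score made by the authors with DESeq2 (per the file names), and p-values before and after adjustment. They come from 1 fit, since each gene has the same mean in every table and the log2 changes close within 1e-09. The deposited log2 changes of low genes are pulled toward 0, and how far those of the Nr4a genes are pulled is not known. The table of shRai1 against shCtrl in vehicle names no genes, and 20107 genes, the Nr4a genes among them, were named here by their unique mean count. Per the file headers, the authors' FPKM are pooled, 1 level and its bounds for each condition. Columns named for the knockdown were not used as values of a treatment. Across 12311 genes, their TTX to vehicle ratio had a Spearman correlation of -0.583 with the deposited change, against 0.697 for shCtrl.

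The plan was followed, except that depth per library is unknown from these summaries. Responses compared or averaged between arms were computed here as differences or means of deposited log2 changes, with the root of summed squared SEs, and tested by a Wald test (two-sided), adjusted by Benjamini-Hochberg over the 18241 named genes whose mean FPKM reached 0.1. Intervals are 1.96 SE on each side. The script was tested on simulated data. A call is an adjusted p under 0.05. Starts of intervals are given 1-based: reading deposited starts as 0-based made 8136 of 22457 lengths equal to RefSeq's, against 515 otherwise. Promoters are RefSeq's windows of GRCm38.p6, cut to the 250 bases before the start. The tools were Python 3.11.15, numpy 2.4.6, pandas 2.3.3, scipy 1.17.1 and matplotlib 3.10.9.

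Named genes were the 3 Nr4a genes, the 3 nearest genes of each by distance, and from each list at most 4 called genes per comparison with the smallest adjusted p. The members, the lists (nuclear receptors, partners and coregulators, calcium-responsive regulators, reported targets, immediate early factors, cell type markers) and the promoter motifs were chosen with earlier results of these data known. Alternatives were other sets of genes to adjust over, a threshold of 0.01, centring, FPKM ratios and another measure of likeness.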

Additional observations from a re-analysis of the deposited data

How the results depend on the processing

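Of 192 alternative values over 45 results, 171 have an adjusted p, of which 170 kept their side of the threshold and 1 lost its call. All of the 171 kept their sign except the uncalled change of Nr4a2 for shRai1 against shCtrl in TTX, which went from -0.0077 to 0.0023 after centring. The other 21 have no test: 11 moved by less than 1 SE or, for distances to the nearest gene, not at all, and 10 moved further. None of the 192 reversed a called change. Pearson correlation as the measure of likeness is outside these counts: it shared 0 of the 3 nearest genes with the distance for each member. The call lost was the rise of Nr4a3 under BIC with shCtrl (0.29) at a threshold of 0.01, with an adjusted p of 0.0200, a range of 0.0156 to 0.0254 over the sets of genes adjusted over, and 0.00604 after centring on the median gene. Those that moved further are log2 ratios of pooled FPKM in place of the deposited change, with pseudocounts of 0.1 and 1. Under TTX they were -3.37 and -3.35 for Nr4a1, -1.20 and -1.14 for Nr4a2, and -2.14 and -2.06 for Nr4a3. Under BIC they were 1.44 and 1.41 for Nr4a2 and 0.64 and 0.63 for Nr4a3. The cause of these shifts was not tested. The adjusted p of Nr4a1 under BIC with shRai1 ranged from 0.0529 to 0.0830 over those sets and was 0.0501 after centring, above 0.05 in each. Centring on the median gene moved no log2 change by over 0.05. Leaving out single libraries was not run, because the values used are summaries per group or comparison, so whether 1 library decides a value is not known. No paired analysis was possible because no value per library was used.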

Other observations

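The pooled FPKM table also has columns named for the knockdown, which belong in no comparison of the report because their names did not follow the deposited changes. For Nr4a1 the authors' table lists 79.5 FPKM (bounds 60.9 to 98.0) in the column named for untreated knockdown, 676 (492 to 860) in that named for TTX and 557 (409 to 705) in that named for BIC. For Nr4a2 the 3 values were 9.84, 70.8 and 20.1 FPKM, and for Nr4a3 15.4, 90.4 and 49.0. All 3 genes were lowest in the column named untreated and highest in the column named TTX, whereas the deposited comparisons with shRai1 put each of them lowest under TTX.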
